A study of Mus musculus with 10 samples.

Results

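The genes described here encode matrix proteins other than collagens: 5 small leucine-rich repeat proteins, lumican (Lum), decorin (Dcn), biglycan (Bgn), fibromodulin (Fmod) and osteoglycin (Ogn), and 5 adhesive or elastic proteins, fibronectin (Fn1), thrombospondin 1 (Thbs1), matrilin 2 (Matn2), periostin (Postn) and elastin (Eln). Every probe set whose platform annotation named exactly 1 of these symbols was taken, which gave 23 probe sets of 45101 and 10 genes of 18193. The rule reads the annotation alone, but the 10 genes were proposed with earlier results of these data known, so their counts are a description and not those of a set chosen blind. Kidney RNA of male C57BL/6 mice aged 30 months was measured on 10 arrays, 1 mouse per array, with 5 mice on a control diet and 5 on a calorie restricted diet. All mice were old, so the comparison holds no young kidney, and how strict the restriction was and how long it ran is not given in the sources used. The comparison of the diets asks how calorie restriction bears on transcripts of the old kidney.

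Small leucine-rich repeat proteins have a core of repeated leucine-rich units that binds collagen fibrils, and most carry sulphated sugar chains. Decorin, biglycan, lumican and fibromodulin set the width and spacing of fibrils, and decorin and biglycan also bind transforming growth factor beta and cell surface receptors. Fibronectin, thrombospondin 1, matrilin 2 and periostin link cells to the matrix and to each other's networks, and elastin forms the recoiling core of elastic fibres in arteries. In the kidney these proteins lie mainly around vessels, in the glomerular mesangium and in the interstitium, where fibroblasts, pericytes and smooth muscle cells make most of them, and they gather in scarred tissue.

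Signals are MAS5 values on a linear scale, with array medians of 115 to 121 under control diet and 118 to 136 under restriction. The brightness of a probe set depends on its own binding, so levels are compared between mice within a probe set and never between probe sets. A probe set was tested where its mean log2 signal reached 6.81, the median of the array, and 18 of the 23 passed, with at least 1 for each gene. The tissue label matched its markers, with mean control signals of 25838 for Umod of the thick limb, 21881 for Slc34a1 of the proximal tubule and 337 for Nphs1 of the podocyte. RNA quality was read from the end ratio, the log2 signal at the 3' end over that at the 5' end of Gapdh and Actb, which is larger in degraded RNA. It was higher in calorie-restricted than in control mice, at 1.67 ± 0.46 against 1.05 ± 0.26 (SD, n = 5, 2-sided exact permutation p = 0.0476). Calorie-restricted mice 1, 2 and 3 had ratios of 2.21, 2.01 and 1.75, above every control, and mice 4 and 5 had 1.24 and 1.16, within the control range of 0.76 to 1.39. Control mice 4 and 5 had the highest control ratios, 1.39 and 1.25, both above those of calorie-restricted mice 4 and 5. A fit of mice 4 and 5 of each diet alone was thus not matched for the ratio, which was there higher under control diet. The difference of 0.62 between the diets missed the threshold without control mouse 1, 2 or 3 (0.59, 0.55 and 0.60, exact permutation p = 0.0794 each) or calorie-restricted mouse 1, 2 or 3 (0.49, 0.54 and 0.61, exact permutation p = 0.0714 each). Differences from a fit that held the end ratio as a covariate, and from mice 4 and 5 of each diet alone, are given for every tested member probe set, for the median of each gene list, and for the named list genes past the threshold where they differ by over 1.5 times from the main value.

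With the main settings a probe set each of lumican, thrombospondin 1 and matrilin 2 was called lower in calorie-restricted kidney. None of the members rose past the threshold. None of these 3 calls held when the fit included the end ratio or in mice 4 and 5 alone. In those fits 0.0222% and 0.533% of all tested probe sets were called lower, against 3.16% with the main settings. Most calls of any gene were thus lost there, and the loss is not particular to the members. The brighter Matn2 probe set, not called with the main settings, passed in both of those fits. Within each diet its signals were higher in the mice with the highest end ratios. At an adjusted p under 0.05 in limma, 3 of the 18 tested member probe sets were lower, beside 3.16% of all tested probe sets. Of the 18, 0 were higher, beside 2.93% of all, and at an unadjusted p under 0.05 3 were higher and 8 lower, beside 12.4% and 13.8% of all. The 3 higher were all probe sets of Fmod, and the 8 lower held both probe sets of Ogn and of Matn2. These counts thus repeat genes. Of the 18 differences 14 lay below 0, beside 50% of all. The diets did not overlap for 2 member probe sets, both lower in calorie restriction (3.45% of all tested probe sets), and for 0 that were higher (3.67% of all). Quantile normalization left 3 member probe sets lower, beside 1.83% of all, and centring each array on its median gave 4, beside 5.41% of all. By the brightest probe set of each gene, 2 of 10 members fell, Lum and Thbs1, beside 3.02% of all 12196 genes. The difference was below 0 for 9 of 10 members, beside 50.8% of all genes, and its median was -0.39 against -0.0052 over all genes. With the mean of a gene's tested probe sets in place of the brightest, 4 of 10 members fell, Lum, Thbs1, Matn2 and Ogn, beside 2.62% of all genes. Whole kidney was measured, so fewer cells of a type and less RNA per cell cannot be told apart in any of these values.

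**Figure D1:**
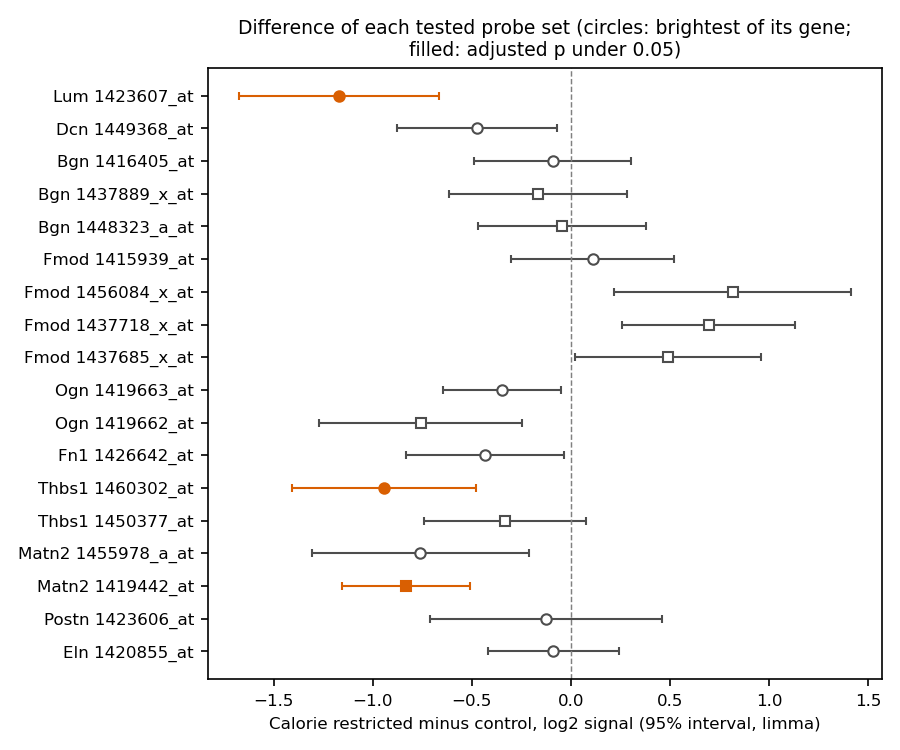
Calorie restricted minus control difference in log2 signal (x axis) of the 18 tested probe sets, with the 95% interval from limma (n = 5 per diet). Circles mark the brightest probe set of a gene and squares the others, and filled symbols those with an adjusted p under 0.05. The filled symbols are Lum at -1.17, Thbs1 at -0.94 and a Matn2 probe set at -0.83, and the symbols right of 0 are those of Fmod.

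Lumican, a keratan sulphate proteoglycan that spaces collagen fibrils, showed the largest fall of the members. The Lum probe set 1423607_at gave signals of 407, 537, 314, 377 and 618 in control mice 1 to 5. In calorie-restricted mice 1 to 5 it gave 114, 180.5, 248, 219 and 249. Every calorie-restricted mouse lay below every control, and mouse 1 was the lowest. The means were 451 ± 124 and 202 ± 56.8 (SD, n = 5), a log2 difference of -1.17 ± 0.24 (SE, adjusted p = 0.0202), or 2.25-fold lower. The diets did not overlap in 3.45% of all tested probe sets with the calorie-restricted values lower. In mice 4 and 5 of each diet alone the Lum difference was -1.05 (adjusted p = 0.128), and adjusted for the end ratio it was -0.80 (adjusted p = 0.275). The call was also lost without control mouse 2 (-1.10, adjusted p = 0.0569) and without calorie-restricted mouse 2 (-1.14, adjusted p = 0.0515).

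Decorin and biglycan, dermatan or chondroitin sulphate proteoglycans of closely related sequence, did not pass the threshold. The bright Dcn probe set 1449368_at gave 5035, 4156, 2543, 4199.9 and 4247 in control mice and 2214, 2169, 2915, 3655 and 3581 in calorie-restricted mice. Control mouse 3 and calorie-restricted mice 1 and 2 were low, and the diets overlapped. The Dcn difference was -0.47 ± 0.19 (SE, adjusted p = 0.132). It was -0.22 in mice 4 and 5 alone and -0.14 adjusted for the end ratio, and calorie-restricted mice 1 and 2, lowest in Dcn, had the highest ratios. In the RefSeq gene order (GRCm38.p6) Lum and Dcn are direct neighbours, and Kera and Epyc, small leucine-rich repeat genes that follow Lum, were not tested.

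The 3 Bgn probe sets gave like values. The brightest, 1416405_at, read 4767, 3463, 4323, 4758 and 7414 in control mice and 4854, 5877, 4908, 3847 and 3395 in calorie-restricted mice. Control mouse 5 was the highest on all 3 probe sets, and the diets overlapped throughout. The differences were -0.092 ± 0.18, -0.17 ± 0.21 and -0.046 ± 0.20 (SE, adjusted p = 0.787, 0.651 and 0.908), with a 95% interval of -0.49 to 0.30 for the brightest. In mice 4 and 5 of each diet alone they were -0.72, -0.71 and -0.67, short of the threshold (adjusted p = 0.147, 0.251 and 0.112), and adjusted for the end ratio -0.52, -0.47 and -0.40. Within a diet, the 3 probe sets followed each other over the 10 arrays, with Pearson's r of 0.80 to 0.91 after each diet's mean was subtracted.

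Osteoglycin, also called mimecan, and fibromodulin stood on opposite sides of 0. Their promoters, the 250 bases before the RefSeq start (GRCm38.p6), are shown because these genes are members of 1 protein family whose probe sets differed in sign. Of the 10 members, Bgn, Fmod, Ogn and Postn were matched to a promoter entry. Capitals mark letters that match 1 of 4 motifs on either strand. A TATA box was searched as TATAAA. The core of a SMAD-binding element was CAGAC. An AP-1 site was TGANTCA, and a GC box was GGGCGG.
Ogn, chr13:49607765-49608014, plus strand: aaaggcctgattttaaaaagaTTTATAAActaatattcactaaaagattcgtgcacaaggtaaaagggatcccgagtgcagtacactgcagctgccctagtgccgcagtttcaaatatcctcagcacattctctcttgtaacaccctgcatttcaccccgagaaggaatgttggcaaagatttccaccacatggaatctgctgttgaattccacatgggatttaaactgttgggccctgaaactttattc
Fmod, chr1:134037004-134037253, plus strand: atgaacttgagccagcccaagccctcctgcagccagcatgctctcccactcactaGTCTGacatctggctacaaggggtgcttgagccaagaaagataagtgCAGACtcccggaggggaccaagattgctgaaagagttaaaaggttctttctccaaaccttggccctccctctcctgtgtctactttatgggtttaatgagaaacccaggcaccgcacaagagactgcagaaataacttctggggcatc
The Ogn window held 2 overlapping TATA box matches on opposite strands, 229 and 227 bases before the start, and 0 of the other motifs. The Fmod window held 2 matches of the SMAD core, 195 and 148 bases before the start, and 0 of the others. Among 32851 windows of the same length, 12.4% held the TATA box, 42.2% the SMAD core, 6.75% the AP-1 site and 32.7% the GC box. The GC content of the windows was 42.0% for Ogn and 51.2% for Fmod. These matches describe the letters and were not linked to the signals.

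The brighter Ogn probe set, 1419663_at, gave 1631, 1231, 1194, 1170.2 and 1843 in control mice and 1109, 1176, 1150.2, 1116 and 926 in calorie-restricted mice. Of the calorie-restricted mice 4 lay below all controls, and mouse 2 exceeded control mouse 4 by a small margin. The difference was -0.35 ± 0.14 (SE, adjusted p = 0.133). The dimmer probe set, 1419662_at, gave 495, 456, 317, 248 and 323 against 154, 144, 285, 273 and 240.2, with calorie-restricted mice 1 and 2 far below the rest. Its difference was -0.76 ± 0.24 (SE, adjusted p = 0.0691), and -0.85 without calorie-restricted mouse 4 (adjusted p = 0.0492). In mice 4 and 5 alone the brighter probe set differed by -0.53 and the dimmer by -0.15, and adjusted for the end ratio by -0.46 and -0.20. Within a diet the Ogn probe sets did not follow each other over the 10 arrays (Pearson's r = 0.10). Their mean differed by -0.55 ± 0.15 (SE, adjusted p = 0.0497), the value that brought Ogn past the threshold. The neighbouring small leucine-rich repeat gene Omd differed by -0.62 ± 0.25 (SE, adjusted p = 0.141), with -0.056 in mice 4 and 5 alone and -0.23 after adjustment for the end ratio, and Aspn and Ecm2 beside it were not tested.

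Fibromodulin, a keratan sulphate proteoglycan that binds fibrillar collagen, had 6 probe sets, 4 of them tested. All 6 had a difference above 0, and 0 of the 4 tested passed the threshold. Probe set 1437718_x_at gave 184, 101, 108, 116 and 152 in control mice and 229.9, 234, 219.8, 165 and 201 in calorie-restricted mice, so that 4 calorie-restricted mice lay above all controls. Its difference was 0.69 ± 0.20 (SE, adjusted p = 0.0556). Probe sets 1456084_x_at and 1437685_x_at differed by 0.82 ± 0.28 and 0.49 ± 0.22 (SE, adjusted p = 0.0882 and 0.172). The brightest, 1415939_at, gave 326, 198, 179, 186 and 234 against 258, 249, 258, 173 and 256, a difference of 0.11 ± 0.19 (SE, adjusted p = 0.754). On that probe set control mouse 1 was the highest of all mice and calorie-restricted mouse 4 the lowest. Names ending in x_at mark probe sets whose probes can bind other transcripts, and the 5 Fmod probe sets of this kind had the larger differences. The 4 tested probe sets followed each other within a diet, with r of 0.67 to 0.93 over the 10 arrays. In mice 4 and 5 alone they differed by 0.46 for 1437718_x_at, 0.29 for 1456084_x_at, 0.22 for 1437685_x_at and 0.013 for the brightest. Adjusted for the end ratio the values, in the same order, were 0.49, 0.36, 0.24 and 0.015, and none passed. Without control mouse 1, 1437718_x_at and 1456084_x_at passed (0.82 and 1.04, adjusted p = 0.0318 and 0.0279). So did 1437718_x_at with array weights (0.74, adjusted p = 0.0355) and without calorie-restricted mouse 4 (0.78, adjusted p = 0.0388), and 1456084_x_at without calorie-restricted mouse 5 (0.95, adjusted p = 0.0479).

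**Figure D2:**
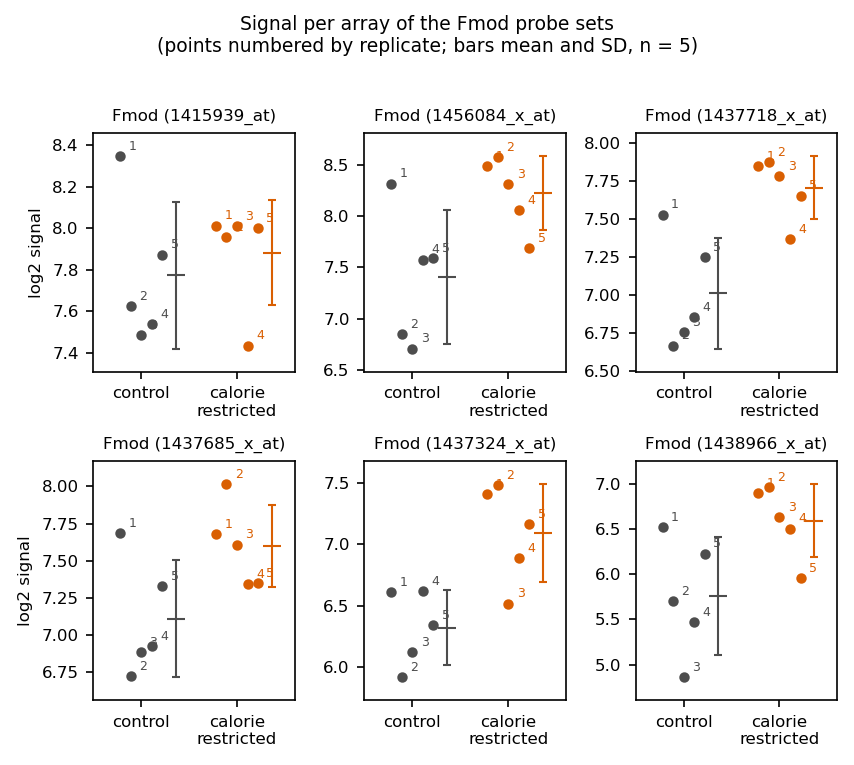
Log2 signal (y axis) of the 6 Fmod probe sets in 5 control (grey) and 5 calorie-restricted (orange) mice, numbered by replicate, with the mean and SD (n = 5) to the right of each group. Control mouse 1 lies above the other controls in 5 of the 6 panels, and in the panel of 1437718_x_at the 4 highest values are calorie restricted. The dimmest probe sets, 1437324_x_at and 1438966_x_at, were under the signal filter.

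Thrombospondin 1, a secreted adhesive glycoprotein that activates latent transforming growth factor beta and binds the receptors Cd36 and Cd47, fell by its brighter probe set. That probe set, 1460302_at, gave 335, 616, 494, 397 and 306 in control mice and 169.9, 182, 193, 308 and 257 in calorie-restricted mice. Calorie-restricted mice 1, 2, 3 and 5 lay below all controls, and mouse 4 lay just above control mouse 5. The means were 429.6 ± 127 and 222 ± 58.5 (SD, n = 5), a difference of -0.94 ± 0.22 (SE, adjusted p = 0.0276), or 1.92-fold lower. The dimmer probe set, 1450377_at, gave 222, 260.3, 288, 169 and 349 against 192, 194, 182, 186 and 243. The diets overlapped there and the difference was -0.33 ± 0.19 (SE, adjusted p = 0.287), with -0.19 in mice 4 and 5 alone and -0.18 after adjustment for the end ratio. Within a diet the Thbs1 probe sets did not follow each other over the 10 arrays (r = 0.032). The call on 1460302_at was lost when adjusted for the end ratio (-0.45, adjusted p = 0.417) and in mice 4 and 5 alone (-0.31, adjusted p = 0.550). It was also lost without control mouse 2, 3 or 4 (-0.80, -0.88 and -0.96, adjusted p = 0.0706, 0.0641 and 0.0559) and without calorie-restricted mouse 1, 2 or 3 (-0.86, -0.88 and -0.90, adjusted p = 0.0685, 0.0721 and 0.0681). The calorie-restricted mice with the lowest Thbs1 signals, 1, 2 and 3, were those with the highest end ratios. The part of that ratio in the Thbs1 difference was not tested beyond these fits.

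Matrilin 2, an adaptor protein of filamentous networks around cells, fell on the dimmer of its probe sets. Probe set 1419442_at gave 347, 447, 369.8, 419 and 479 in control mice and 222, 218, 194, 225 and 303 in calorie-restricted mice. Every calorie-restricted mouse lay below every control, beside the 3.45% of probe sets with such a pattern. The means were 412 ± 54.1 and 232 ± 41.2 (SD, n = 5), a difference of -0.83 ± 0.15 (SE, adjusted p = 0.0167), or 1.78-fold lower. The brighter probe set, 1455978_a_at, gave 587, 791, 798, 1291 and 1112 against 675, 714, 615, 285 and 454. Control mice 4 and 5 were high and calorie-restricted mice 4 and 5 low there, while mice 1 to 3 of the diets overlapped. Its difference was -0.76 ± 0.25 (SE, adjusted p = 0.0838). In mice 4 and 5 alone the dimmer probe set differed by -0.78 (adjusted p = 0.160) and the brighter by -1.73 (adjusted p = 0.0216). Adjusted for the end ratio the values were -0.73 (adjusted p = 0.180) for the dimmer and -1.45 (adjusted p = 0.0421) for the brighter. The brighter Matn2 probe set was thus the 1 of 18 that passed in each of these fits, beside 0.0222% of all tested probe sets lower with the covariate and 0.533% in mice 4 and 5 alone. Within each diet its signals were higher in the mice with the highest end ratios, control mice 4 and 5 and calorie-restricted mice 1, 2 and 3. In mice 4 and 5 alone the ratio was higher under control diet. The part of the ratio in this Matn2 difference was not tested beyond these fits. Without control mouse 2 the call on 1419442_at was lost (-0.80, adjusted p = 0.0503). Within a diet the Matn2 probe sets did not follow each other (r = 0.079).

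**Figure D3:**
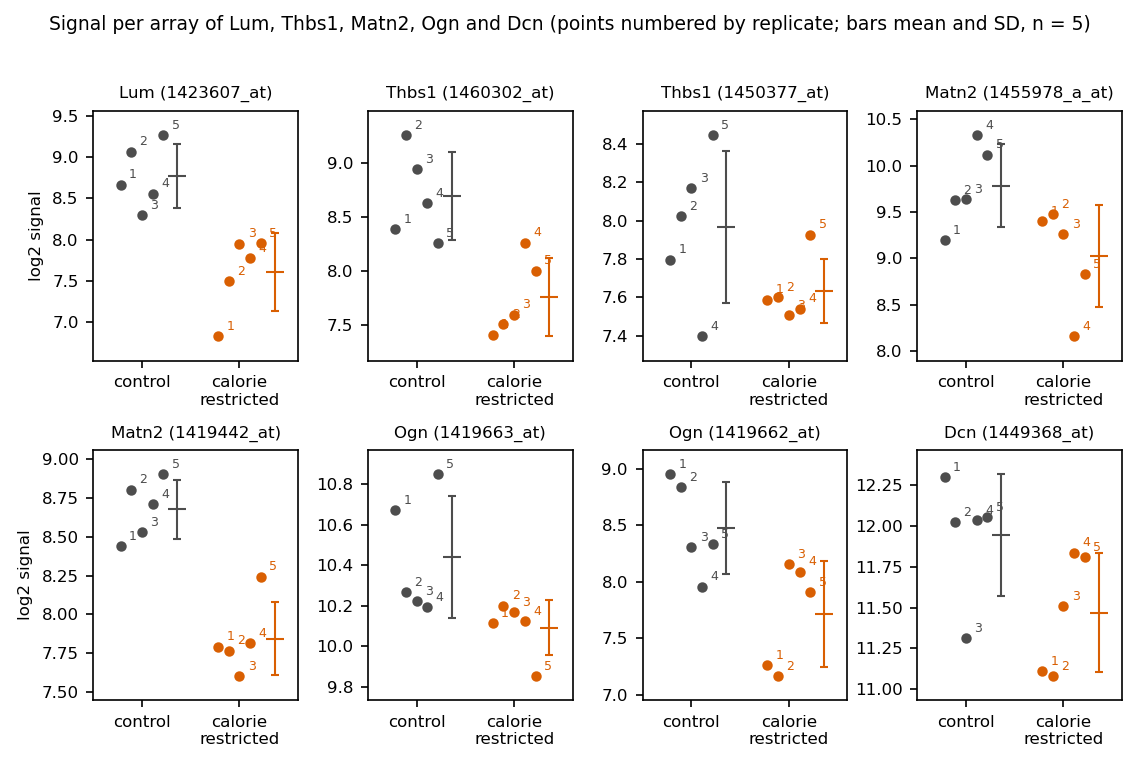
Log2 signal (y axis) of Lum, Thbs1, Matn2, Ogn and Dcn probe sets in 5 control (grey) and 5 calorie-restricted (orange) mice, numbered by replicate, with the mean and SD (n = 5) to the right of each group. All 5 calorie-restricted points lie below all controls for Lum and for Matn2 1419442_at. In the Thbs1 1460302_at, Ogn and Dcn panels the diets overlap.

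Fibronectin, the adhesive protein on which other matrix fibrils are laid, read 1592, 1363, 1133, 1354 and 1868 in control mice and 676, 969, 1299.6, 1184 and 1373 in calorie-restricted mice on probe set 1426642_at. Calorie-restricted mice 1 and 2 lay below all controls and the other three within their range. The Fn1 difference was -0.43 ± 0.19 (SE, adjusted p = 0.160), with -0.32 in mice 4 and 5 alone and -0.13 after adjustment for the end ratio. Periostin, which binds integrins and is made by activated fibroblasts, ran from 118 to 317 in control and from 106 to 251 in calorie-restricted mice. Its difference was -0.13 ± 0.27 (SE, adjusted p = 0.803, 95% interval -0.71 to 0.46), with -0.18 in mice 4 and 5 alone and -0.010 after adjustment for the end ratio. Elastin ran from 472 to 715 and from 389 to 621, with a difference of -0.089 ± 0.15 (SE, adjusted p = 0.750, 95% interval -0.42 to 0.24). The Eln difference was -0.14 in mice 4 and 5 alone, and after adjustment for the end ratio it was -0.079. The intervals of Postn and Eln hold changes in both directions.

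The 5 member probe sets under the signal filter had no call. For Fmod, 1437324_x_at ran from 60.4 to 98.1 in control and from 91.5 to 179 in calorie-restricted mice, and 1438966_x_at from 29.1 to 92.0 and from 62.1 to 125. The dim Dcn probe set 1441506_at ran from 30.1 to 70.1 and from 19.6 to 110.4, and the dim Fn1 probe set 1437218_at from 5.12 to 58.7 and from 7.59 to 70.8. The dim Eln probe set 1420854_at ran from 20.9 to 43.5 in control mice and up to 55.1 in calorie-restricted mice. For the dim Dcn, Fn1 and Eln probe sets the spread within a diet exceeded the difference between the diet means.

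**Figure D4:**
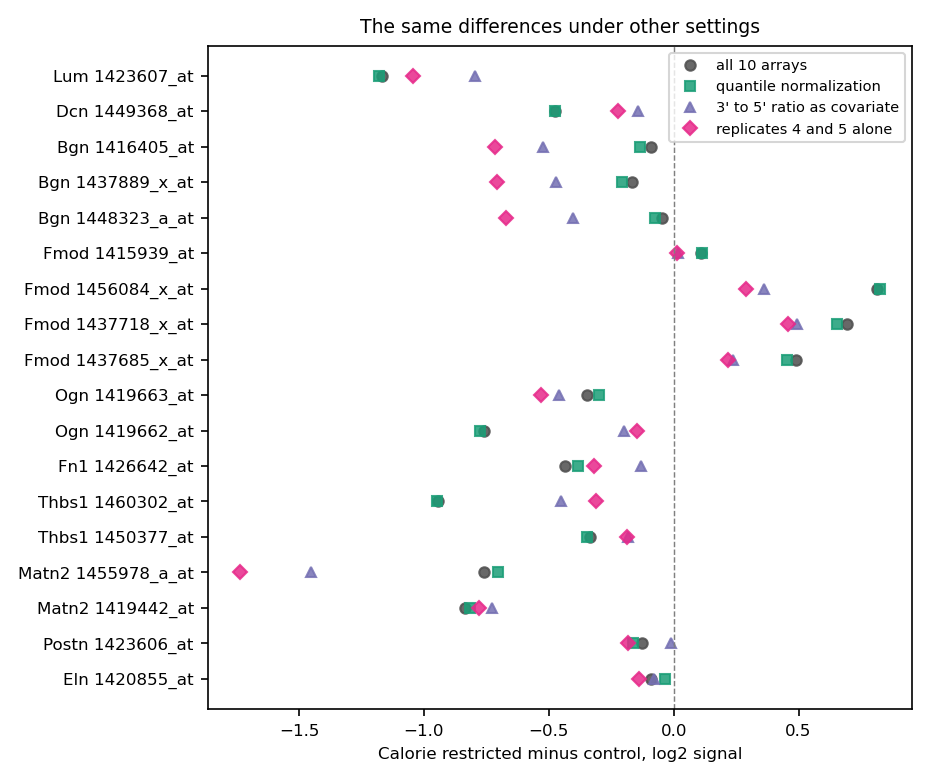
Calorie restricted minus control difference in log2 signal (x axis) of the 18 tested probe sets with all 10 arrays, after quantile normalization, adjusted for the end ratio, and in mice 4 and 5 of each diet alone. Lum stays between -1.18 and -0.80 and Matn2 1419442_at between -0.83 and -0.73, the Thbs1, Dcn and Fn1 points move toward 0 with the covariate, and the Bgn points move away from it.

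**Figure D5:**
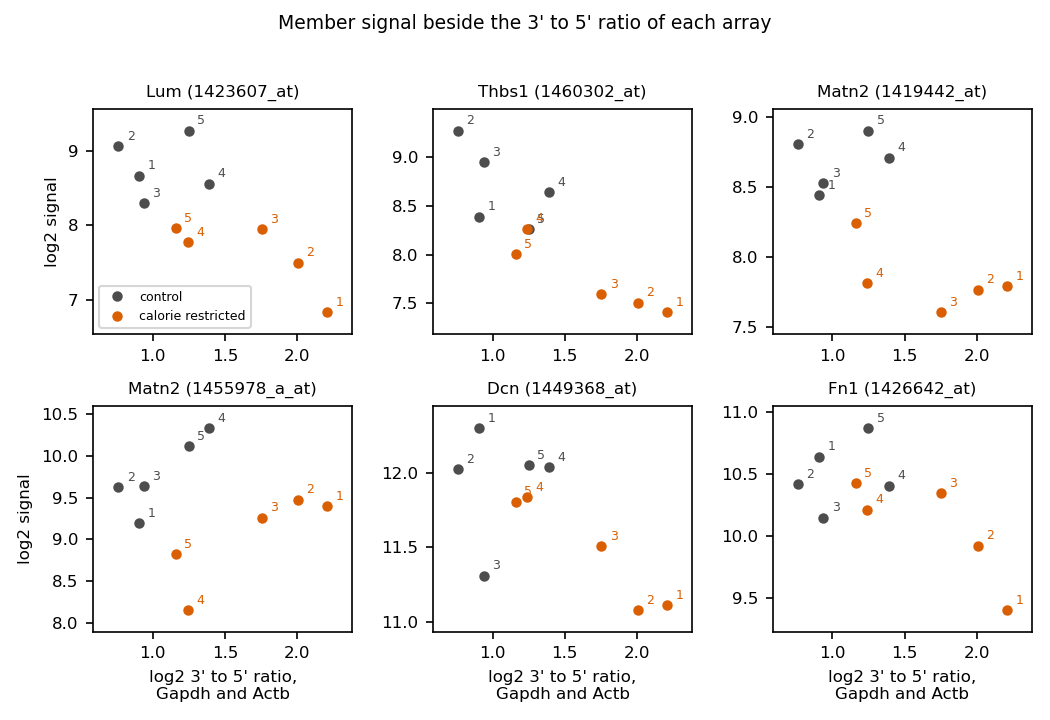
Log2 signal (y axis) of Lum, Thbs1, Matn2, Dcn and Fn1 probe sets against the log2 end ratio of Gapdh and Actb (x axis), 1 point per mouse, control grey and calorie restricted orange, numbered by replicate. Calorie-restricted mice 1, 2 and 3 stand apart on the right at ratios of 1.75 to 2.21, and mice 4 and 5 stand among the controls.

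The other members of the same families were followed with lists of genes, each gene by its brightest probe set, and read against the 3.02% of all genes called lower and the 3.08% called higher. Of 4 other small leucine-rich repeat genes tested, 0 passed the threshold, with a median of 0.037 that was -0.027 adjusted for the end ratio and 0.012 in mice 4 and 5 alone. Podn and Omd had the smallest p (0.31 ± 0.13 and -0.62 ± 0.25, SE, adjusted p = 0.136 and 0.141), and Omd moved toward 0 in those fits, as given above. Of 15 other adhesive matrix genes 4 fell and 0 rose, with a median of -0.33, which was -0.49 adjusted for the end ratio and -0.59 in mice 4 and 5 alone. They were the integrin ligand nephronectin, Npnt (-0.91 ± 0.15, adjusted p = 0.0138), Sparcl1 (-0.89 ± 0.15, adjusted p = 0.0152), Smoc2 (-0.71 ± 0.15, adjusted p = 0.0212) and, named beyond the rule after its value was seen, connective tissue growth factor, Ccn2 (-0.55 ± 0.13, adjusted p = 0.0304). Of 14 genes of elastic fibres 2 fell and 0 rose, with a median of -0.23, the cross-linking enzymes Lox and Loxl1 (-0.93 ± 0.20 and -0.56 ± 0.12, SE, adjusted p = 0.0217 and 0.0218). The elastic fibre median was -0.27 adjusted for the end ratio and -0.46 in mice 4 and 5 alone. Of 12 fibrillar and associated collagens, to which the members bind, 1 fell, Col14a1 (-0.43 ± 0.12, SE, adjusted p = 0.0471), and the median was -0.10, against -0.18 adjusted for the end ratio and -0.34 in mice 4 and 5 alone.

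Receptors of the members, in a list that also holds collagen receptors such as Ddr1 and Ddr2, moved in both directions. Of 19 tested, 2 fell and 1 rose, with a median of 0.047. That median turned sign, to -0.20 adjusted for the end ratio and -0.27 in mice 4 and 5 alone. The integrin beta 1 chain, Itgb1, shared by the main fibronectin receptors, fell (-0.68 ± 0.16, SE, adjusted p = 0.0276), as did the thrombospondin 1 receptor Cd47 (-0.33 ± 0.082, SE, adjusted p = 0.0353). The fibronectin-binding proteoglycan syndecan 4, Sdc4, rose (0.64 ± 0.15, SE, adjusted p = 0.0294), and in mice 4 and 5 alone Itgb1 differed by -0.24 and Sdc4 by 0.15. Adjusted for the end ratio Itgb1 differed by -0.31 and Sdc4 by 0.23. Of 11 genes of the transforming growth factor beta pathway 1 fell, the receptor Tgfbr1 (-0.57 ± 0.10, SE, adjusted p = 0.0170), and the median was -0.069, against -0.092 adjusted for the end ratio and -0.13 in mice 4 and 5 alone. Of 15 enzymes that build the sugar chains of the proteoglycans 0 passed, with a median of 0.0082 that was -0.059 adjusted for the end ratio and -0.16 in mice 4 and 5 alone. The nearest were Chst11 and Csgalnact2 (1.20 ± 0.34 and -0.50 ± 0.15, SE, adjusted p = 0.0504 and 0.0555). Of 8 proteases and helpers that process the members 2 fell, the thrombospondin repeat protease Adamts1 (-0.78 ± 0.13, SE, adjusted p = 0.0141) and the membrane protease Mmp14 (-0.70 ± 0.16, SE, adjusted p = 0.0303), and the median was -0.32, against -0.35 adjusted for the end ratio and -0.41 in mice 4 and 5 alone. Mmp14 differed by -1.21 in mice 4 and 5 alone.

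Markers of cells that can make or hold these transcripts were read in the same way. Some lists held genes past the threshold, and those of smooth muscle, platelets and endothelium held none. Of 12 fibroblast and pericyte markers 1 fell, Pdgfra (-0.95 ± 0.17, SE, adjusted p = 0.0168), and 11 lay below 0 (median -0.22), with summed signals of 18659 to 25521 in control and 17606 to 19102.5 in calorie-restricted mice. Of 8 smooth muscle and mesangial markers 0 passed (median -0.15), and their summed signals of 12134 to 17019 and 11912 to 14071 overlapped. Of 12 macrophage markers 5 fell (median -0.67, summed signals 23180.0 to 41855 and 16544 to 27817), and those of smallest p were Mpeg1, Ctss and Cd14 (-1.02, -0.63 and -0.73). The other macrophage markers that fell, Mrc1 and Lyz2 (-0.87 and -1.11), were named after their values were seen. Adjusted for the end ratio, Cd14 and Lyz2 differed by -0.48 and -0.66. Of 5 adipocyte markers (perirenal fat) 2 fell (median -0.77), Fabp4 and Cidea (-0.77 and -1.10). Fabp4 differed by -0.43 adjusted for the end ratio and by -0.45 in mice 4 and 5 alone. The summed adipocyte signals of 14224 to 20198 and 7092 to 12597.5 did not overlap. Fabp4, with a mean control signal of 12983, made up most of that sum, which thus mainly follows 1 probe set. The diets did not overlap for Fabp4, and they overlapped for each of the other adipocyte markers. Of 7 injured tubule markers 2 fell, Vcam1 and Tnfrsf12a (-0.92 and -0.97, median -0.73, summed signals 14334 to 26421 and 16101 to 17861), and 5 lay below 0. Krt18 and Clu, named after their values were seen, lay above 0 (0.44 and 0.0076, adjusted p = 0.176 and 0.978 in limma). Clu was the brightest of the 7, with a mean control signal of 11162, and weighs most in the summed signals. Adjusted for the end ratio Krt18 and Clu differed by -0.15 and -0.25, and in mice 4 and 5 alone by -0.34 and -0.36. Of 6 podocyte markers 2 fell, Wt1 and Cd2ap (-0.71 and -0.44, median -0.32, summed signals 5433 to 8537 and 5143 to 6172). Of 10 proximal tubule markers 7 rose (median 0.38), with summed signals of 107536 to 136831 and 157848 to 189870.0. The smallest p there were those of Kap, Fbp1 and Slc5a2 (0.74, 0.37 and 0.38), and after quantile normalization Kap differed by 0.40, Fbp1 by 0.018, Slc5a2 by 0.25 and the list's median was 0.23. Platelet markers, a source of Thbs1 transcript in blood, had 0 of 5 past the threshold (median 0.21), with Gp1bb and Treml1 at 0.28 and 0.32 (0.14 and 0.21 adjusted for the end ratio, and -0.073 for Treml1 in mice 4 and 5 alone) and summed signals of 1501 to 1957 and 1394 to 2476. Liver markers, since liver makes plasma fibronectin, had 1 of 5 higher, Alb (1.53 ± 0.36, SE, adjusted p = 0.0312), with a median of 0.64 and summed signals of 8625 to 14129 and 10924 to 14930.5. Ttr, with a mean control signal of 9089 beside 523 for Alb, made up most of that sum. Alb differed by 2.43 in mice 4 and 5 alone. Of the other liver markers, named after their values were seen, Apoa1 and Apoa2 differed by 1.37 and 0.64, Ttr by 0.13 and Fgb by -0.73 (adjusted p = 0.0566, 0.101, 0.599 and 0.213 in limma). Endothelial markers had 0 of 10 past the threshold (median -0.24), with Pecam1 and Emcn at -0.60 and -0.65. These were -0.015 and 0.054 in mice 4 and 5 alone, and adjusted for the end ratio -0.097 and 0.026. Distal nephron markers had 1 of 9 higher, Slc4a1 (0.64, with 0.20 in mice 4 and 5 alone and 0.22 adjusted for the end ratio), and a median of 0.080 that was 5.9e-05 after quantile normalization. Adjusted for the end ratio, the medians were -0.22 for fibroblasts, -0.29 for smooth muscle, -0.50 for macrophages, -0.42 for adipocytes, -0.85 for injured tubule and -0.46 for podocytes. They were 0.39 for proximal and 0.15 for distal tubule, 0.14 for platelets, 0.78 for liver and -0.11 for endothelium. In mice 4 and 5 alone the medians in the order of these sentences were -0.44, -0.42, -0.61, -0.45, -1.03 and -0.66, then 0.42, 0.076, 0.23, 0.98 and -0.25. No tested marker had a signal set to the floor, and the part of these cells in the member differences was not tested.

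The members did not share 1 pattern over the mice within a diet. Over 45 pairs of members, each by its brightest probe set, the median of Pearson's r over 10 arrays after subtraction of each diet's mean was 0.059, and 29 pairs lay above 0. All values of a pair come from the same 10 arrays and share their scaling and RNA quality. The highest value was that of Lum with Fn1 (0.91) and the lowest that of Bgn with Thbs1 (-0.85). Over all tested genes the most similar to Lum were Mlxip, Cxxc1 and Csk (r = 0.96, 0.93 and 0.92), to Thbs1 Miga1, Cpsf6 and Fmo4 (0.97, 0.96 and 0.96) and to Matn2 Map4, Ints1 and Adgrg1 (0.99, 0.98 and 0.98). To Dcn they were Fndc3a, Evi2a and Nck1 (0.94, 0.91 and 0.91), to Bgn Tcof1, Cbarp and Atn1 (0.97, 0.96 and 0.96) and to Fmod Rhov, Fam32a and Tmem183a (0.92, 0.91 and 0.91). To Ogn they were Cd79a, the elastic fibre gene Fbln5 and Ptk2b (0.94, 0.93 and 0.92), and to Fn1 Phlpp2, Tigd5 and Phtf1 (0.95, 0.94 and 0.94). To Postn they were Dnttip1, Ciart and Fcna (0.93, 0.91 and 0.91), and to Eln Cited2, Gucy1a2 and Anapc15 (0.95, 0.92 and 0.91). These were the highest values over all tested genes and describe these 10 arrays.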

How the data were processed

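Kidney RNA of 10 mice was measured with Mouse Genome 430 2.0 arrays of Affymetrix, each holding 1 mouse. The authors deposited MAS5 signal intensity made, per the submitters' processing notes, in Affymetrix Expression Console on a linear scale, and the 2% trimmed mean is equal on all arrays. Sequencing depth does not apply, and the number of arrays limits the precision. Signals below 1 were set to 1 (922 values, 0 among tested probe sets), log2 was taken, and limma 3.58.1 in R 4.3.3 was fitted with an intensity trend to probe sets at or above the median mean log2 signal, without the control probe sets. The main test was limma's moderated test with Benjamini-Hochberg adjustment over 22519 probe sets. Counts of genes and lists took the brightest probe set of each of 12196 genes with that adjusted p. Of 45101 probe sets, 34958 had 1 symbol, 932 several and 9211 none, 0 symbols changed with RefSeq, and 1 probe set naming a member and another gene was left out. P-values set the difference between the diets against the spread between mice, 1 array each, which also holds array and RNA quality variation.

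All 10 members are named, with up to 3 genes past the threshold from each list, or the 2 of smallest p where none passed, and the 3 genes most like each member. The members and lists were chosen with earlier results of these data known. The fit was tested on simulated data with independent noise for each probe set and array. That simulation held no factor shared across an array, such as RNA quality, and does not cover its effect. Alternatives covered the filter, normalization, log offset, variance model, array weights, replicate block, RNA ratio, subsets of mice, probe set rule and an exact permutation test. Motifs were matched in RefSeq promoter windows of GRCm38.p6.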

Additional observations from a re-analysis of the deposited data

Results flagged for a closer look

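Among 46 groups of 5 mice, 1 for each member probe set and diet, 5 held a mouse far from the other four by Dixon's test, where chance gives about 1 in 20. Control mouse 3 was lowest for Dcn 1449368_at, at 2543 against 4156 in the next control, and without it the Dcn difference was -0.63 (adjusted p = 0.0584). Calorie-restricted mouse 4 was lowest for Fmod 1415939_at, at 173 against 249 in the next. Calorie-restricted mouse 5 was lowest for Ogn 1419663_at, at 926 against 1109 in the next. Calorie-restricted mouse 5 was highest for Thbs1 1450377_at, at 243 against 194 in the next. Calorie-restricted mouse 2 was lowest for Postn 1423606_at, at 106 against 200.6 in the next.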

How the results depend on the processing

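The cause of each change under an alternative was not tested unless stated. The count of member genes lower by the brightest probe set, 2 with the main settings, was 1 with no filter, 1 without the intensity trend, 0 under the stricter filter, 4 with probe sets of a gene averaged and 0 with the exact permutation test. The smallest p that exact test can give is 0.00794, which Lum reached, with an adjusted p of 0.106. No gene could therefore pass it in either direction, and its 0 says nothing about the members. The stricter filter no longer tested Lum, Thbs1 1460302_at and Matn2 1419442_at. That count was 1 adjusted for the end ratio, 1 in mice 4 and 5 of each diet alone and 0 for calorie-restricted mice 4 and 5 against all controls, and it ran from 0 to 2 without any 1 mouse. The count of member probe sets lower, 3 with the main settings, was 0 under the stricter filter, 1 adjusted for the end ratio, 1 in mice 4 and 5 alone and 0 for calorie-restricted mice 4 and 5 against all controls, and ran from 0 to 4 without any 1 mouse. It was 0 without control mouse 2 and 1 without calorie-restricted mouse 2. The count of member genes higher was 0 under every alternative run. Over all tested probe sets 1371 passed, against 287 with no filter, 764 after quantile normalization, 243 without the trend, 2292 with array weights, 9 adjusted for the end ratio, 198 in mice 4 and 5 alone, 1 for calorie-restricted mice 4 and 5 against all controls, and 125 to 2481 without any 1 mouse, lowest without control mouse 2 and highest without calorie-restricted mouse 5. With the replicate number as a block, 127 passed, with 1 member probe set and 0 member genes lower by the brightest probe set. The deviations of same-numbered mice of the diets correlated at -0.14 to -0.087, and 0 controls correlated best with their own number. Whether same-numbered mice shared a processing step was not tested. Median centring moved the median of all tested probe sets by -0.098 and quantile normalization by 0.0048. The end ratio difference ran from 0.49 to 0.75 without any 1 mouse. Signs turned only for members near 0. Bgn 1416405_at was 0.065 without control mouse 5 and 0.0087 without calorie-restricted mouse 5, and Bgn 1437889_x_at was 0.019 without control mouse 5. Bgn 1448323_a_at was 0.033 with array weights, 0.0020 and 0.13 without control mouse 4 or 5 and 0.0018 without calorie-restricted mouse 5. With calorie-restricted mice 4 and 5 against all controls, Fmod 1415939_at was -0.056, Postn 0.11 and Eln 0.087. Without control mouse 4, Postn was 0.025 and Eln 0.0079, and without calorie-restricted mouse 2 they were 0.082 and 0.011. Without any 1 mouse, the lowest values were -0.21, -0.32 and -0.21 for these Bgn probe sets, -0.33 for Postn and -0.16 for Eln. Lum ran from -1.29 to -0.98, Thbs1 1460302_at from -1.07 to -0.80 and Matn2 1419442_at from -0.93 to -0.77. Medians of gene lists that turned sign with the end ratio or in mice 4 and 5 alone are given with their values in the report, as are those that moved by over 1.5 times.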

Other observations

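Genes beside the members on the chromosome, in RefSeq's GRCm38.p6 order, gave values of both signs. Beyond Dcn, in the same stretch as Lum, Eea1 differed by -0.50 ± 0.14 and Atp2b1, on the far side of Kera and Epyc, by 0.48 ± 0.13 (SE, limma, adjusted p = 0.0469 and 0.0459). Prelp, a small leucine-rich repeat gene directly beside Fmod, differed by -0.21 ± 0.19 (SE, limma, adjusted p = 0.512), while Btg2 on the other side of Fmod differed by 0.31 ± 0.15 (SE, limma, adjusted p = 0.217).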
